A study of Mus musculus with 6 samples.

Results

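Nicotinamide adenine dinucleotide (NAD) metabolism was followed through 10 genes in inguinal stromal-vascular cells that carried either a control (puro) or a Prdm16 retrovirus. The genes were chosen by symbol: Nnmt, Nampt, Nmnat1, Nmnat2, Nmnat3, Nadk, Nnt, Cd38, Qprt and Nadsyn1, 10 of the 24197 genes in the count table. They were proposed with values of the same Prdm16 against puro contrast in view, so their levels and differences are given as a description, without p-values. The stromal-vascular fraction is what remains of fat tissue once lipid-filled adipocytes are removed, a mixture of adipocyte progenitors, fibroblasts, vascular and immune cells. All cells came from the inguinal adipose tissue of C57BL/6 mice and were kept in standard growth media with no further treatment recorded, and 3 libraries of polyadenylated RNA were made for each virus. The control is labelled only as puro, and the sources used here do not give the age or sex of the mice or the promoter driving Prdm16. How mixed the cells were when sequenced was not established, and several immune and endothelial markers given below had few or no counts. The labels do not call the replicates separate cultures or animals, so errors and p-values reflect only how these libraries differ, and that spread may be technical.

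NAD carries electrons between metabolic reactions and is also consumed as a substrate. Most cells rebuild it from nicotinamide, the product of those consuming enzymes: Nampt turns nicotinamide into nicotinamide mononucleotide, and the Nmnat enzymes turn that into NAD. Nnmt takes nicotinamide out of this loop by methylating it with S-adenosylmethionine, and it is known as a gene of white fat. A separate route starts from tryptophan, passes through Qprt and ends at Nadsyn1, the NAD synthetase. Nadk phosphorylates NAD to NADP, Nnt, an enzyme of the inner mitochondrial membrane, passes hydride from NADH to NADP, and Cd38 hydrolyses NAD at the cell surface and on internal membranes.

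Library totals ran from 28169059 to 35798201 counts. Levels are in CPM, the library-scaled count after TMM adjustment. Where a library held 0 counts of a gene, up to 3 remain possible, equal to 0.0852 to 0.104 CPM. Prdm16 itself, read from its delivered and endogenous copies together, had 14 to 25 counts in the puro libraries and 72525 to 98437 in the Prdm16 libraries. Summed CPM of 8 adipose stromal markers was 6089 to 6248 in puro and 3142 to 3384 in Prdm16 libraries. Within that list Pdgfra was at 199 ± 9.57 and 188 ± 6.64 CPM (SD, n = 3), Ly6a was 2.63-fold higher in Prdm16 libraries, and Pdgfrb (2.84-fold), Col3a1 (2.66-fold), Thy1 (7.10-fold) and the progenitor marker Cd34 (17.1-fold) were lower. The macrophage markers Emr1 and Tyrobp, the lymphocyte markers Cd3e, Ms4a1 and Cd2, the endothelial Cdh5 and the Schwann cell markers Sox10 and Foxd3 had no count in any library, and of 7 lymphocyte markers none had over 9 counts in a group. Summed CPM of 8 macrophage markers was 4.999 to 6.34 in puro and 4.73 to 4.97 in Prdm16 libraries. Summed CPM of 8 adipocyte markers was 190 to 206 in puro and 607 to 712 in Prdm16 libraries, that of 8 mammary epithelial markers 0.315 to 0.447 and 33.3 to 35.6, that of 8 endothelial markers 14.1 to 15.2 and 22.4 to 23.4, and that of 8 Schwann cell markers 159 to 170 and 104 to 114. In the adipocyte list Fabp4 (from 115 to 551 CPM), Adipoq, Cidec and Pparg were higher and Lipe was 1.71-fold lower. Plin1, Lep and Retn had at most 10 counts over a group. Of the mammary epithelial markers 5 were higher, and Krt8, Krt14 and Krt5 had at most 4 counts over a group. Tek was higher and Vwf lower among the endothelial markers, and 2 Schwann cell markers were higher and 4 lower. The part of these shifts in the values below was not tested, and in bulk RNA fewer cells of a type cannot be told apart from less RNA per cell.

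Of the 10 genes, 9 held enough counts to be tested, and 4 of them were higher, 4 lower and 1 not passing at an adjusted p of 0.05 of edgeR's quasi-likelihood test. Across all 13805 tested genes 75.6% were called, 37.5% higher and 38.0% lower, so a called gene is the usual case in these libraries and nothing is read from the members' share. The CPM ranges of the groups were apart for 8 of the 9, with 4 above and 4 below the controls, against 77.6% of all tested genes, 38.4% above and 39.2% below. The differences were unequal in size: Nnmt and Cd38 were many times lower in the Prdm16 libraries, Nmnat2 was over 2.3-fold higher, and the other tested members differed by less than 1.5-fold.

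**Figure D1:**
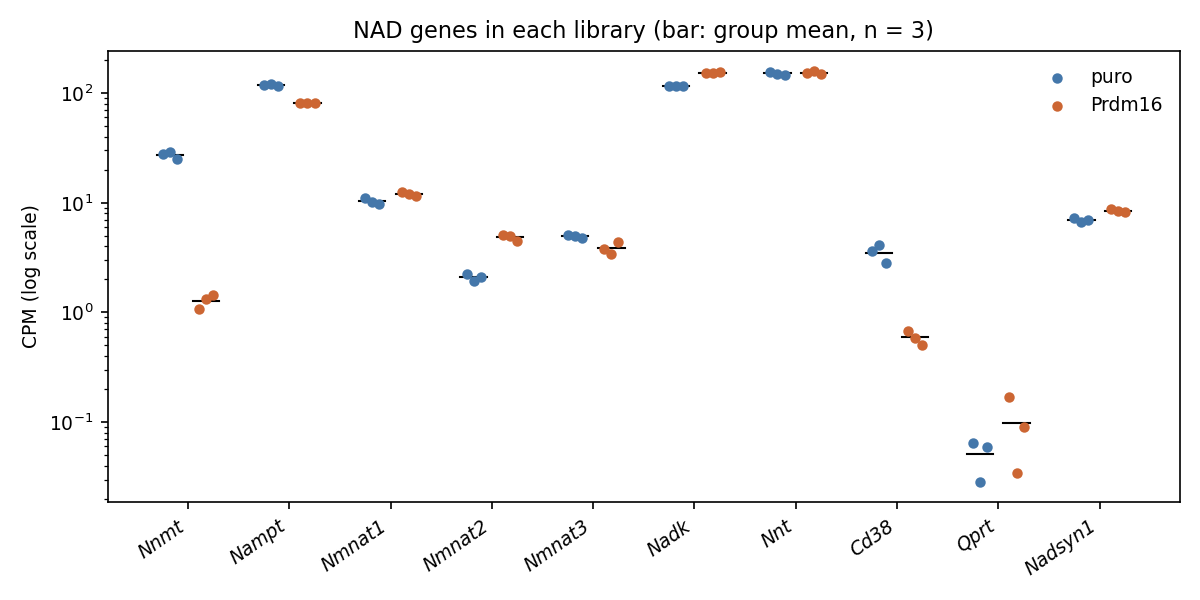
CPM of the 10 genes on a log axis, with 1 point per library, 3 puro (blue) and 3 Prdm16 (orange), and a bar at each group mean. Nnmt falls from a mean of 27.2 to 1.28 CPM and Cd38 from 3.51 to 0.593 CPM, while the points of Nnt and of Qprt overlap between the groups.

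Nnmt, the nicotinamide N-methyltransferase, stood at 27.6, 28.9 and 25.2 CPM in puro libraries 1 to 3 and at 1.08, 1.31 and 1.44 CPM in Prdm16 libraries 1 to 3. Every Prdm16 library was far below every puro library. The means were 27.2 ± 1.87 and 1.28 ± 0.182 CPM (SD, n = 3), and the fitted log2 fold change was −4.42 ± 0.11 (SE), or 21.3-fold lower, and it ranked as the 184th most reduced of the 13805 tested genes. The Prdm16 values rest on 38, 38 and 48 counts, and their coefficient of variation of 14.3% was close to the 15.6% that counting error alone gives at that depth. The puro libraries, with 846 to 1008 counts, varied by 6.86% against 3.33% from counting. Leaving out each library in turn gave log2 fold changes from −4.51 to −4.29.

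Nnmt belongs to a small family of methyltransferases with Inmt, which methylates indoles, and Pnmt, which makes adrenaline. Their coding sequences are shown where Nnmt and each relative share their longest identical run, in capitals. Only a read lying wholly within such a run could be counted for either gene, and a longer one spans bases that differ. Sequences are GENCODE vM21 transcripts on GRCm38, sense strand, with 15 bases on either side.
Nnmt, run shared with Inmt: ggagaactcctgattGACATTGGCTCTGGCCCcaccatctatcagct
Inmt: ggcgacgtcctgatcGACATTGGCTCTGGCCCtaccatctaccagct
Nnmt, run shared with Pnmt: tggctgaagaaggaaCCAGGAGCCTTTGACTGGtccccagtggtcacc
Pnmt: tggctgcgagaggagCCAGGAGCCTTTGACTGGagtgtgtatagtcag
The runs are 17 bases with Inmt, from coding base 181 of Nnmt, and 18 bases with Pnmt, from coding base 304. Neither relative contributed appreciable counts here: Inmt had 10 over the puro group and none over the Prdm16 group, and Pnmt had 1 and none. Setting the 10 puro counts, without their own counting error, against the limit of 3 over the Prdm16 group gave Inmt as at least 3.27-fold lower. Intervals and limits of this kind cover counting error only.

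The genes whose profile over the 6 libraries lay closest to that of Nnmt were found among all tested genes with at least 5 CPM in the higher group, by the root mean square difference of centred log2 CPM. Ank2, an ankyrin that anchors membrane proteins to the cytoskeleton, was the nearest, at a distance of 0.0981, with 46.8 ± 1.28 CPM in puro and 2.21 ± 0.146 CPM in Prdm16 libraries (SD, n = 3). Cyp2d22, a cytochrome P450, followed at 0.112, then the carbohydrate sulfotransferase Chst2 at 0.149, Pgm5, a phosphoglucomutase relative of adhesion sites, at 0.159, and the ADAMTS-like matrix protein Adamtsl3 at 0.164. The likeness is fixed mainly by the step between the groups, which these genes share with Nnmt in size.

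Nampt, the enzyme that sets the pace of salvage from nicotinamide, was at 117.7, 121.9 and 115.9 CPM in the puro libraries and at 81.9, 80.7 and 80.5 CPM in the Prdm16 libraries. All Prdm16 values lay below all puro values, and neither group spread by more than 2.63%. The means were 119 ± 3.12 and 81.0 ± 0.744 CPM (SD, n = 3), and the log2 fold change was −0.55 ± 0.04, or 1.46-fold lower. The reduction was thus in the same direction as that of Nnmt and far smaller, which changed the balance of their messages.

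Per kilobase of exon, Nampt and Nnmt were level in the control cells. Their ratio was 0.984, 0.972 and 1.06 in the puro libraries and 17.5, 14.2 and 12.9 in the Prdm16 libraries. Every Prdm16 library thus held over 12 times as much Nampt as Nnmt per kilobase, with means of 1.005 ± 0.0470 and 14.8 ± 2.36 (SD, n = 3), a 14.8-fold change in the ratio. Exon lengths, 4.53 kb for Nampt and 1.04 kb for Nnmt, came from GENCODE vM21 on another build than the counts, and an error in them would shift the ratio in all libraries by the same factor.

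The Nmnat genes encode the adenylyl transferases that complete NAD in different compartments: Nmnat1 in the nucleus, Nmnat2 in the cytosol and Golgi, mainly known from neurons, and Nmnat3 in mitochondria. Nmnat1 was at 11.0, 10.1 and 9.71 CPM in puro and at 12.5, 12.0 and 11.6 CPM in Prdm16 libraries. Its ranges were apart by a narrow margin, with means of 10.3 ± 0.674 and 12.0 ± 0.468 CPM (SD, n = 3) and a log2 fold change of 0.23 ± 0.07. Leaving out each library in turn gave values from 0.19 to 0.28.

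Nmnat2 was at 2.26, 1.92 and 2.12 CPM in puro and at 5.11, 4.97 and 4.46 CPM in Prdm16 libraries, with no overlap. The means were 2.10 ± 0.169 and 4.85 ± 0.342 CPM (SD, n = 3), and the fitted log2 fold change was 1.21 ± 0.12, or 2.31-fold higher. Nmnat3 was at 5.13, 4.93 and 4.80 CPM in puro and at 3.78, 3.42 and 4.37 CPM in Prdm16 libraries, so that the groups did not overlap although Prdm16 replicate 3 came close to the controls. Its means were 4.95 ± 0.166 and 3.86 ± 0.482 CPM (SD, n = 3), and its log2 fold change was −0.36 ± 0.11. Leaving out each library in turn gave values of Nmnat3 from −0.45 to −0.28, and the value was −0.24 once the median log2 fold change of each chromosome was removed.

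Because Nmnat2 was higher and Nmnat3 lower, the make-up of the Nmnat messages shifted, and their sum per kilobase was 1.13-fold higher. The sum did not overlap between the groups, at 5.79 to 6.41 CPM per kilobase in puro and 6.64 to 6.99 in Prdm16 libraries. Per kilobase, Nmnat2 made up 7.61%, 6.99% and 7.90% of the summed Nmnat level in the puro libraries and 15.8%, 16.2% and 14.3% in the Prdm16 libraries. Nmnat3 made up 32.3%, 33.5% and 33.5% and then 21.8%, 20.8% and 26.1%. Nmnat1 kept the largest share throughout, 59.4 ± 0.737% in puro and 61.7 ± 1.79% in Prdm16 libraries (SD, n = 3), and the sum was 6.05 ± 0.325 and 6.80 ± 0.179 CPM per kilobase (SD, n = 3).

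**Figure D2:**
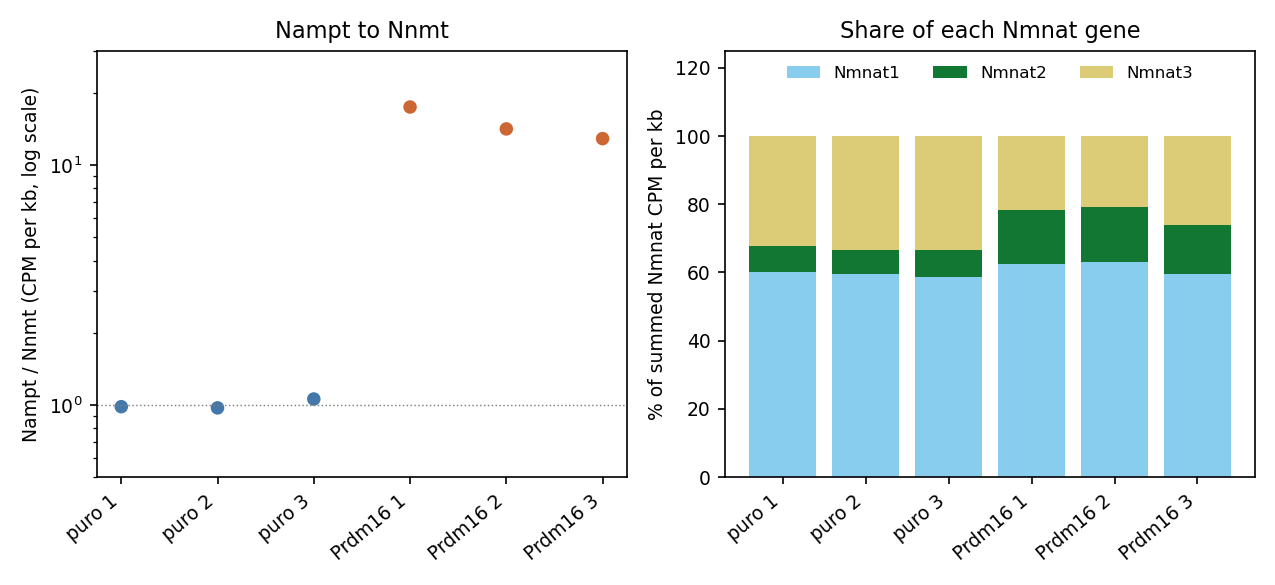
Left, the ratio of Nampt to Nnmt in CPM per kilobase for each library on a log axis, near 1 in the 3 puro libraries (blue) and at 12.9 to 17.5 in the 3 Prdm16 libraries (orange). Right, the share of each Nmnat gene in the summed Nmnat CPM per kilobase of each library, where the Nmnat2 part widens from 6.99% to 7.90% in puro to 14.3% to 16.2% in Prdm16 libraries.

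The Nmnat genes are related, and their coding sequences are shown at the longest identical runs, in capitals, of the pairs that include Nmnat3, since the opposite differences of Nmnat2 and Nmnat3 depend on reads being told apart.
Nmnat1, run shared with Nmnat3: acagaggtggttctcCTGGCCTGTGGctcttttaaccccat
Nmnat3: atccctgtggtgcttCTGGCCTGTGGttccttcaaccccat
Nmnat2, run shared with Nmnat3: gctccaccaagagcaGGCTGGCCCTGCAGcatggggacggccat
Nmnat3: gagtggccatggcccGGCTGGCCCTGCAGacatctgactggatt
The runs are 11 and 14 bases long. Over whole transcripts the longest run was 12 bases between Nmnat1 and Nmnat3, 14 between Nmnat2 and Nmnat3, and 31 between Nmnat1 and Nmnat2, the last not within both coding sequences. In GENCODE vM21 no exon of the 10 genes shares a base with an exon of a gene of another name.

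Nadk, the cytosolic NAD kinase, was at 116.2, 114.9 and 115.3 CPM in puro and at 152.1, 153.5 and 154.9 CPM in Prdm16 libraries. It varied by 0.579% among the puro and 0.921% among the Prdm16 libraries, and its groups were well apart. The means were 115 ± 0.669 and 153 ± 1.41 CPM (SD, n = 3), and the fitted log2 fold change was 0.41 ± 0.03, or 1.33-fold higher. Nnt, the mitochondrial transhydrogenase, was at 154.9, 149.8 and 147.6 CPM in puro and at 152.2, 158.0 and 148.5 CPM in Prdm16 libraries. These ranges overlapped, and the means of 151 ± 3.74 and 153 ± 4.76 CPM (SD, n = 3) gave a log2 fold change of 0.02 ± 0.04. The C57BL/6J substrain is known to carry a deletion within Nnt; the labels name C57BL/6 without a substrain, and a count per gene does not show which form of the message was read.

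Cd38, the NAD glycohydrolase, was at 3.61, 4.10 and 2.83 CPM in puro and at 0.682, 0.587 and 0.509 CPM in Prdm16 libraries. The lowest puro library was still over 4 times the highest Prdm16 library. The means were 3.51 ± 0.640 and 0.593 ± 0.0863 CPM (SD, n = 3), and the fitted log2 fold change was −2.56 ± 0.21, or 5.89-fold lower, on 95 to 143 counts per puro and 17 to 24 counts per Prdm16 library. Cd38 is also a surface protein of many immune cells. Of the 8 macrophage markers, Lyz2 went from 146 counts over the puro group to 3 over the Prdm16 group and Csf1r from 31 to 9, in the direction of Cd38. The pan-leukocyte marker Ptprc had none and 7, Cd68 was at 3.846 and 4.601 CPM, Itgam had 4 and 5 counts and Mrc1 5 and 2, and Emr1 and Tyrobp were at 0. The part of these cells in the Cd38 values was not tested.

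On the route from tryptophan, Qprt was close to 0 and Nadsyn1 was not. Qprt, which makes nicotinic acid mononucleotide from quinolinate, had 2, 1 and 2 counts in the puro and 6, 1 and 3 counts in the Prdm16 libraries, too few to be tested. The groups overlapped, and the ratio of the totals was 2.04 with an exact 95% binomial counting interval of 0.635 to 7.60, so a difference was not detectable at this depth. Nadsyn1 was at 7.32, 6.68 and 6.91 CPM in puro and at 8.72, 8.32 and 8.18 CPM in Prdm16 libraries. Its groups did not overlap, with means of 6.97 ± 0.325 and 8.41 ± 0.280 CPM (SD, n = 3) and a log2 fold change of 0.27 ± 0.08.

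Levels of different genes were compared per kilobase of exon. In the puro libraries the order was Nnt (34.3 CPM per kilobase), Nadk (34.1), Nampt (26.2), Nnmt (26.1), Nmnat1 (3.59), Nadsyn1 (2.64), Nmnat3 (1.998), Cd38 (1.07), Nmnat2 (0.454) and Qprt (0.0248). Nnt and Nadk overlapped there, as did Nampt and Nnmt, and every other neighbouring pair was apart. In the Prdm16 libraries Nadk (45.4) led, followed by Nnt (34.8), Nampt (17.9), Nmnat1 (4.20), Nadsyn1 (3.18), Nmnat3 (1.56), Nnmt (1.22), Nmnat2 (1.05), Cd38 (0.181) and Qprt (0.0479). Nnmt and Nmnat2 were the only neighbours to overlap in that group. Nnmt thus moved from the fourth place to the seventh, and Nmnat2 passed Cd38.

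The stretch before the start site was examined for 8 of the members, since Nnmt and Nnt had no entry in the RefSeq promoter table (GRCm38.p6). The windows of Nampt, Nmnat2 and Nmnat3 are shown, as the salvage enzyme and the 2 Nmnat genes that differed in opposite directions; bases that GENCODE places in an exon were left off. Capitals mark GC boxes.
Nampt, chr12:32820085-32820334, plus strand: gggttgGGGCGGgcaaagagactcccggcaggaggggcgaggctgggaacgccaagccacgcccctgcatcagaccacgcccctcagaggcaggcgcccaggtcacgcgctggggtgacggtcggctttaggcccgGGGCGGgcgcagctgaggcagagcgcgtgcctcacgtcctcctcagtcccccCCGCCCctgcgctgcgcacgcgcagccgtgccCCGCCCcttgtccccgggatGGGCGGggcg
Nmnat2, chr1:152954851-152954992, plus strand: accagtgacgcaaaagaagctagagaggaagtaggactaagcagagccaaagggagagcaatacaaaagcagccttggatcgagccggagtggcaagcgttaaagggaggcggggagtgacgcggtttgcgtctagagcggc
Nmnat3, chr9:98296320-98296569, plus strand: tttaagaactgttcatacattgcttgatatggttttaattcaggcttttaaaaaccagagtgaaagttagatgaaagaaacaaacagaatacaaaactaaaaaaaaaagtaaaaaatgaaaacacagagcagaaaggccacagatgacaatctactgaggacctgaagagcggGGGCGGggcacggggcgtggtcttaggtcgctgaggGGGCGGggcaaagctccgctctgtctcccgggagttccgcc
Searched on both strands over the 250 bases before the start, the GC box GGGCGG occurred in 4 of the 8 members, namely 5 times for Nampt, 2 times each for Nmnat3 and Nadsyn1 and once for Nmnat1, against 32.9% of 27025 promoters. The CCAAT box CCAAT was found for Nadk (34.5% of all promoters). None of the 8 held the TATA box TATAAA (13.0%) or the AP-1 core TGANTCA (6.87%). None of these motifs contains another. A match here is a match of letters only.

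The rest of the NAD network was read from 80 further genes in 7 lists by role, none of them a member, of which 62 were tested. In the Prdm16 libraries 28 rose, 23 fell and 11 did not pass, 45.2% higher and 37.1% lower against 37.5% and 38.0% of all tested genes, and the median log2 fold change was −0.0020 against −0.0075 over all tested genes. The genes named from each list are the up to 3 with the smallest p, unless stated otherwise, and adjusted p-values come from edgeR's quasi-likelihood test over all 13805 genes. Median log2 fold changes differed between chromosomes, from −0.410 on chromosome 18 and −0.381 on chromosome 15 to 0.388 on chromosome 19 and 0.486 on chromosome 14. The source of these shifts was not tested, and values with the medians removed are given for some genes.

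**Figure D3:**
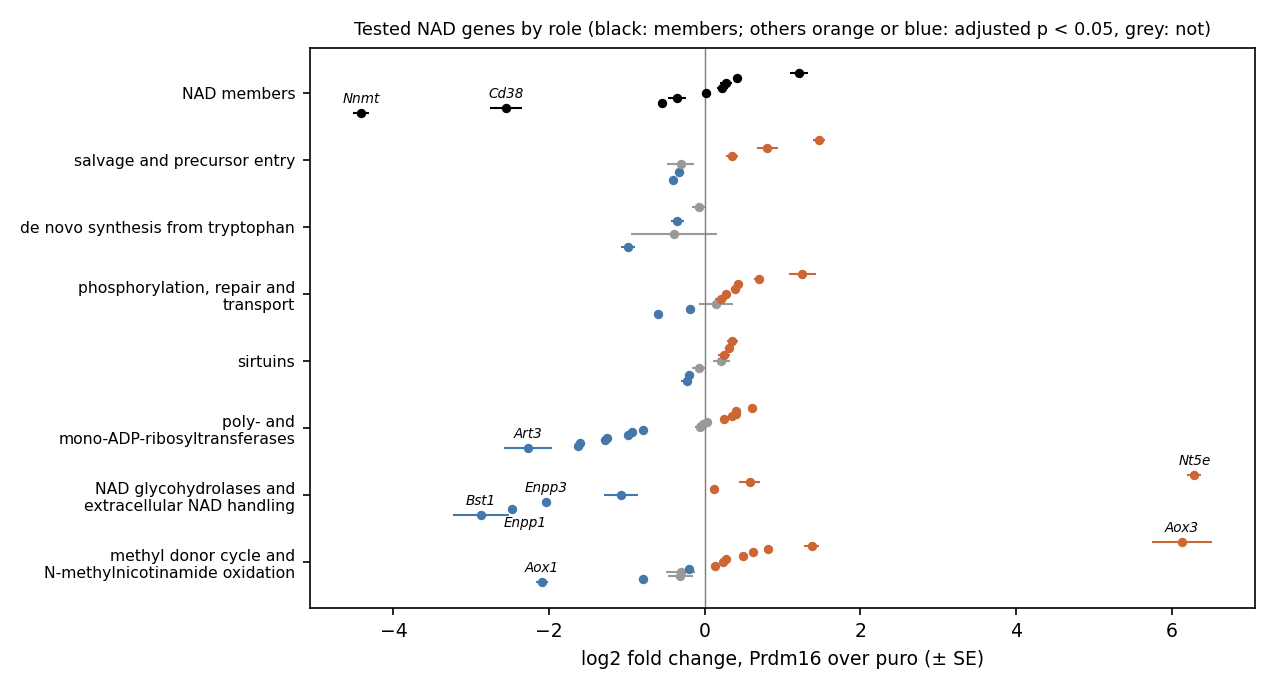
Log2 fold change, Prdm16 over puro, with its SE for the 9 tested members (black) and the 62 other tested genes of the network in rows by role, orange where higher and blue where lower at an adjusted p below 0.05 and grey otherwise. Most genes lie within 1 unit of 0, while Nnmt (−4.42), Cd38 (−2.56) and Bst1 (−2.87) lie far to the left and Nt5e (6.29) and Aox3 (6.13) far to the right.

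Closest to Cd38 in role is a list of NAD glycohydrolases and genes of extracellular NAD handling. Of its 7 tested genes 3 rose and 4 fell, with a median log2 fold change of −1.07 against −0.0075 over all tested genes. The shares were 42.9% higher and 57.1% lower, beside 37.5% and 38.0% of all tested genes. The list also holds Sarm1, an NAD hydrolase inside the cell, which fell, and the channel proteins P2rx7 and Gja1, which rose and are not enzymes. Enpp1, an ectonucleotidase that cleaves NAD among other nucleotides, fell from 103.7 ± 2.78 to 18.7 ± 1.04 CPM (SD, n = 3), with a log2 fold change of −2.47 ± 0.05 (adjusted p = 5.04e-12). Its relative Enpp3 fell from 56.6 ± 2.40 to 13.8 ± 0.618 CPM (SD, n = 3), with a log2 fold change of −2.04 ± 0.05 (adjusted p = 5.84e-11). Nt5e, the 5′-nucleotidase CD73 that dephosphorylates the AMP released from NAD, went the other way, from 1.94, 1.49 and 1.25 CPM in the puro libraries to 114.9, 123.5 and 126.0 CPM in the Prdm16 libraries. This was a log2 fold change of 6.29 ± 0.09, or 78.2-fold higher (adjusted p = 7.32e-13). Bst1, the closest relative of Cd38 and named here after its values were seen, fell with a log2 fold change of −2.87 ± 0.36 (adjusted p = 2.28e-05) from 77 counts over the puro group to 10 over the Prdm16 group.

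**Figure D4:**
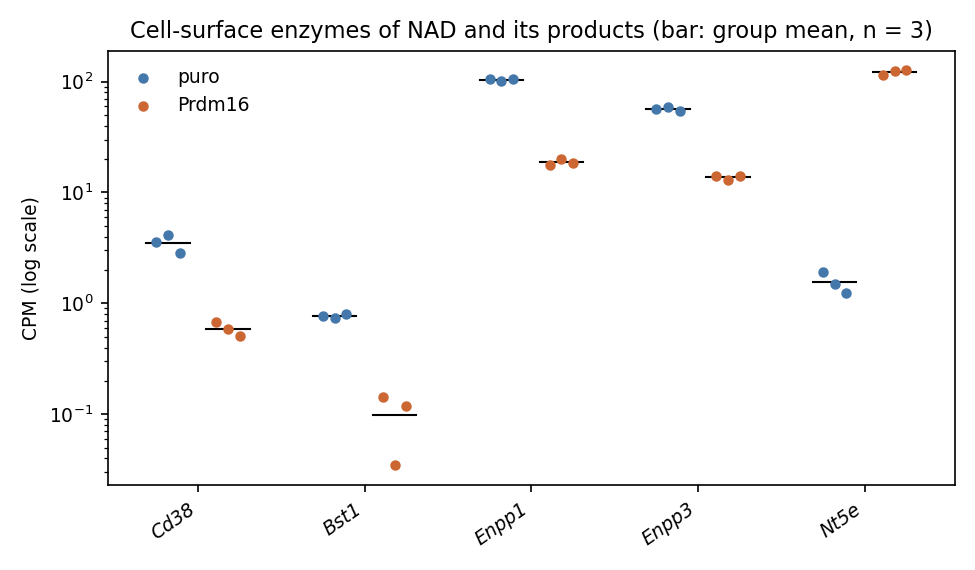
CPM on a log axis for Cd38 and 4 other cell-surface enzymes that act on NAD or its products, with 1 point per library (blue puro, orange Prdm16) and a bar at each group mean. Cd38, Bst1, Enpp1 and Enpp3 lie lower in all 3 Prdm16 libraries and Nt5e lies higher, at 121 against 1.56 CPM.

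The reactions on either side of Nnmt are those that supply its methyl group and those that oxidise its product. Of 13 tested genes 8 rose, 3 fell and 2 did not pass. These were 61.5% higher and 23.1% lower, beside 37.5% and 38.0% of all tested genes. Ahcy, which hydrolyses the S-adenosylhomocysteine left after methylation, rose from 24.3 ± 0.720 to 42.6 ± 1.78 CPM (SD, n = 3), by 0.81 ± 0.05 on the log2 scale (adjusted p = 6.11e-08), and its relative Ahcyl2 rose by 0.62 ± 0.04 (adjusted p = 7.02e-08). Another relative, Ahcyl1, named outside the rule of smallest p, fell from a mean of 581 to 506 CPM, by 0.20 ± 0.04 (adjusted p = 0.00132). With chromosome medians removed the log2 fold change of Ahcyl1 was −0.0022. Aox1, an aldehyde oxidase that turns N-methylnicotinamide into pyridones, fell from 24.6 ± 0.983 to 5.77 ± 0.443 CPM (SD, n = 3), and its log2 fold change was −2.09 ± 0.07 (adjusted p = 5.36e-10). Aox3, another aldehyde oxidase of the same gene cluster that was named after its values were seen, went from 0, 1 and 2 counts to 74, 66 and 91, 78.5 times as many per effective read (counting interval 26.5 to 383). The coding sequences of Aox1 and Aox3 share a run of at most 20 bases.

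Salvage and precursor entry held 6 tested genes, of which 3 rose, 2 fell and 1 did not pass. These were 50% higher and 33.3% lower, beside 37.5% and 38.0% of all tested genes. The nucleoside transporter Slc29a2 rose by 1.46 ± 0.08 on the log2 scale (adjusted p = 1.44e-08), and by 1.08 with chromosome medians removed. Slc29a1, the transporter of the same family with the higher CPM, fell by 0.40 ± 0.04 (adjusted p = 1.36e-06). Pnp, a purine nucleoside phosphorylase that also cleaves nicotinamide riboside, fell by 0.33 ± 0.04 (adjusted p = 9.15e-06), and by 0.82 with chromosome medians removed. In the route from tryptophan only 4 of 11 genes were tested, and 2 fell and 2 did not pass. These were 0% higher and 50% lower, beside 37.5% and 38.0% of all tested genes. The kynurenine aminotransferase Ccbl2 fell by 0.99 ± 0.09 (adjusted p = 1.39e-06) and the formamidase Afmid by 0.35 ± 0.08 (adjusted p = 0.00244), whereas Ccbl1 had −0.08 ± 0.09 (adjusted p = 0.453). The 7 untested genes, among them the entry enzymes Tdo2 and Ido1 and the enzymes Kmo, Kynu and Haao before Qprt, had at most 10 counts over a group.

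Genes of NAD phosphorylation, repair and transport rose for 6, fell for 2 and did not pass for 1 of 9. These were 66.7% higher and 22.2% lower, beside 37.5% and 38.0% of all tested genes. Slc25a51, the mitochondrial NAD carrier, rose from 133 ± 2.11 to 174 ± 0.763 CPM (SD, n = 3), by 0.39 ± 0.03 on the log2 scale (adjusted p = 9.80e-07). The peroxisomal carrier Slc25a17 fell by 0.60 ± 0.04 (adjusted p = 8.41e-08), and by 0.22 with chromosome medians removed. Nudt13, a mitochondrial hydrolase of reduced dinucleotides, rose by 0.70 ± 0.07 (adjusted p = 2.81e-06), and by 0.21 with chromosome medians removed. Nadk2, the mitochondrial counterpart of Nadk and named after its values were seen, was at 67.6, 68.3 and 65.0 CPM in puro and at 106.0, 174.8 and 197.7 CPM in Prdm16 libraries. It rose by 1.25 ± 0.17 (adjusted p = 5.51e-05) with Prdm16 replicate 1 well below the other Prdm16 libraries, and leaving out each library in turn gave 1.07 to 1.48. With chromosome medians removed its value was 1.63.

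Sirtuins and ADP-ribosyltransferases consume NAD in signalling. Among 7 sirtuins, NAD-dependent deacylases, 3 rose, 2 fell and 2 did not pass, or 42.9% higher and 28.6% lower beside 37.5% and 38.0% of all tested genes. Sirt1 rose by 0.31 ± 0.04 (adjusted p = 3.17e-05), the mitochondrial Sirt3 by 0.35 ± 0.07 (adjusted p = 0.000866), and the mainly cytosolic Sirt2 fell by 0.21 ± 0.04 (adjusted p = 0.000594). Of 16 tested ADP-ribosyltransferases 5 rose, 8 fell and 3 did not pass, or 31.2% higher and 50% lower, with a median log2 fold change of −0.42. Parp11, Parp14 and Parp9, mono-ADP-ribosyltransferase family members known as interferon-induced genes, fell with log2 fold changes of −1.61 ± 0.04 (adjusted p = 4.80e-11), −1.63 ± 0.04 (adjusted p = 7.27e-11) and −1.26 ± 0.04 (adjusted p = 1.03e-10). Parp14 went from 456 ± 20.8 to 147 ± 6.19 CPM (SD, n = 3). Parp1, the main nuclear poly-ADP-ribose polymerase and named after its values were seen, rose by 0.40 ± 0.03 (adjusted p = 1.17e-06).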

How the data were processed

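The deposited table holds raw counts per gene symbol as the authors made them, with no normalization. STAR, featureCounts, Subread and the build mm9 are named in the submitters' processing notes, without roles. The sources used here give no versions, strand setting or treatment of reads shared between genes. Groups and replicate numbers came from the sample titles. The members, the 7 role lists, the 7 marker lists and the tests were chosen with earlier results of these data known.

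After filterByExpr (13805 of 24197 genes kept) and TMM scaling, Prdm16 was compared with puro by the two-sided quasi-likelihood test of edgeR 4.0.16 (R 4.3.3). Its p-values were adjusted over all tested genes by Benjamini-Hochberg, with a threshold of 0.05. The untested genes held 0.0297% of the counts. The common biological coefficient of variation was 4.78%, and replicate pairs had a chi-square per gene of 2.14 to 9.30, where sampling noise gives 1. SEs came from the fold change and its F statistic. Named genes were all members, up to 3 per role list with the smallest p, and the 5 genes nearest to Nnmt (log2 CPM, prior count 2, predicted gene models left out). The fit was tested on simulated counts. Exon lengths are the union of coding-gene exons in GENCODE vM21. Alternatives were other scalings, filters and tools (DESeq2 1.42.0, limma-voom 3.58.1), a replicate block, Prdm16 left out, an adjusted p of 0.01, chromosome medians removed, and each library left out in turn.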

Additional observations from a re-analysis of the deposited data

How the results depend on the processing

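For 30 named genes outside the members (21 of the role lists by p, 4 named after their values were seen and the 5 nearest to Nnmt), all 479 values under the alternatives (Bst1 had none at the filter of 1 CPM in 3 libraries) kept their direction and their side of the threshold. Most of these genes were picked for small p-values or large differences in the same libraries, so their steadiness follows largely from that choice. For the 9 tested members, given as a description, 143 of 144 values kept their direction: Nnt changed sign without Prdm16 replicate 2 (log2 fold change −0.0029) and was highest, at 0.046, without Prdm16 replicate 3. Of the member calls behind the counts of higher and lower, those of Nmnat1 and Nmnat3 were lost 7 times in all, both at an adjusted p of 0.01, Nmnat1 also without puro replicate 2 or 3 or Prdm16 replicate 1, and Nmnat3 also without Prdm16 replicate 2 and with chromosome medians removed. The counts of called members, of other network genes and of all genes stayed within 1.5 times of their values in every alternative, with members higher for 3 to 4 and lower for 3 to 4. Upper-quartile scaling gave 5011 higher and 5415 lower over all genes, and 27 and 23 in the network. Chromosome medians removed gave 23 higher and 24 lower in the network. Same-numbered libraries of the 2 groups did not deviate together (r of −0.164, 0.0986 and −0.0674 for numbers 1 to 3), so the numbers were not treated as pairs. With a replicate block 4 members were higher and 4 lower, 27 and 23 of the other network genes, and 5017 and 5072 of all genes. Genes with few counts, such as Qprt and most of the tryptophan route, are limited by depth.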
